A study of Mus musculus with 24 samples.

Results

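Nuclear genes for the subunits of respiratory complexes II to V were followed through all 6 groups of cultured mouse lung adenocarcinoma cells in this RNA-seq series. Members were taken by symbol from the authors' count tables. A symbol counted when it was Sdha, Sdhb, Sdhc or Sdhd, or began with Uqcr, Cox4 to Cox8 or Atp5, and was not named as a pseudogene. It also had to reach 1 CPM, counts scaled to a library total of 1000000, in at least 4 libraries of a table. The CPM levels of genes printed below carry a further scaling between libraries, which is given with the processing. The rule kept 42 genes of the 41527 symbols in the tables together. These were 4 genes of complex II, 8 of complex III, 13 of complex IV and 17 of complex V, and all 42 passed the filter on low counts in both tables. The rule went by name, and RefSeq's annotation lists 1 of the 42, Cox6c2, as a pseudogene. It stays in the counts of members, and it was called in 0 of the 6 comparisons. Just inside the level were Cox7a1, with group means of 1.09 to 3.00 CPM, and Cox6c2, which met it in the shRNA table (5.44 CPM in S/S shAtf4 and 5.82 CPM in S/S shControl) and stayed between 0.153 and 0.235 CPM in the siRNA groups. Below it were 6 complex IV symbols, Cox4i2, Cox6a2, Cox6b2, Cox7b2, Cox8b and Cox8c, of which Cox4i2 had the highest library at 0.818 CPM. Cox8b and Cox8c stayed at or under 0.0394 CPM, and Cox7b2 had 0 counts in the shRNA table and no entry in the siRNA table. The catalytic complex III gene Cyc1 and the ATP synthase inhibitor gene Atpif1 fall outside the rule by name.

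The groups held 4 libraries each. The A/A cells carried eIF2α, a translation initiation factor, with alanine at the serine whose phosphorylation starts the integrated stress response, and S/S cells carried it unchanged. The siRNA table held A/A siChchd10, A/A siControl, S/S siChchd10 and S/S siControl. CHCHD10 sits in the mitochondrial intermembrane space, beside the inner membrane that holds the complexes. The shRNA table held S/S shAtf4 and S/S shControl. ATF4 is the transcription factor whose translation rises when eIF2α is phosphorylated. All 6 groups were primary tumour cells in culture, and the design text describes them as GFP-positive, CD45-negative cells sorted from lung tumours. The labels give no animal, age, clone or culture for a library, and the columns name 1 shRNA against Atf4. They also do not say how many tumours or lines stand for each genotype. A difference between A/A and S/S cells therefore cannot be told apart from a difference between lines or tumours of origin. Genotype followed the sample titles, because the genotype field of A/A siControl reads as wild type.

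Complexes II, III and IV pass electrons from succinate and ubiquinol through cytochrome c to oxygen, and complexes III and IV pump protons as they do so. Complex V, the ATP synthase, lets the protons flow back and makes ATP. Complex II is built from nuclear genes alone, whereas complexes III, IV and V join nuclear subunits to catalytic or proton-carrying subunits made from mitochondrial DNA. The nuclear genes for these complexes are scattered over the genome. Here they lay on 18 chromosomes with at most 5 on any chromosome.

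Library totals ran from 14067290 to 70932804 counts in the shRNA table and from 42863650 to 75409451 in the siRNA table. The targeted mRNAs were low where the labels say so. Atf4 had 302, 237, 319 and 225 CPM in S/S shAtf4, against 565, 835, 818 and 498 CPM in S/S shControl. Chchd10 had 1.37, 1.75, 2.04 and 2.15 CPM in A/A siChchd10, against 10.2, 9.53, 7.97 and 7.99 CPM in A/A siControl. In S/S cells it had 6.69, 5.34, 6.33 and 6.82 CPM in S/S siChchd10, against 40.6, 45.5, 38.1 and 46.0 CPM in S/S siControl. Every knockdown library lay below every control library for its target, and the A/A siControl libraries themselves lay far below the S/S siControl libraries for Chchd10. In the shRNA table the leading component of the 1000 most variable genes (62.9% of their variance) set replicate 4 of both groups apart from the others. In the siRNA table that component (93.4%) separated the genotypes, and among A/A siControl libraries replicate 1 scored 26.8 and the others 36.1 to 37.5. Results are therefore also given without these libraries where they matter. Of 8 epithelial markers, Krt8, Krt18, Krt19 and Cdh1 were at 293 CPM or more in every library, and the others were not. Epcam, an adhesion molecule of epithelia, was at 2.14 to 3.32 CPM in A/A siChchd10 and 1.14 to 1.82 CPM in A/A siControl. It was at 33.4 to 36.8 CPM in S/S siChchd10 and 8.15 to 9.45 CPM in S/S siControl. Cldn4, a protein of tight junctions, was at or under 0.511 CPM in every A/A library, against 10.6 to 11.8 CPM in S/S siChchd10 and 4.22 to 6.96 CPM in S/S siControl. Between genotypes 3 of the 8 were called higher and 5 lower in A/A cells with either siRNA. Of all genes, 35.6% were higher and 34.7% lower with siControl, and 34.7% and 35.8% with siChchd10. After siChchd10 in A/A cells 4 rose and 3 fell, against 26.5% and 27.2% of all genes. In S/S cells 5 rose and 0 fell, against 15.0% and 13.0%. After shAtf4 1 of the 6 tested, Cdh1, fell and 0 rose, against 0.388% and 0.15% of all genes. Nkx2-1, a transcription factor of lung epithelium, stood at 126 to 137 CPM in A/A siChchd10 and 109.7 to 118 CPM in A/A siControl. It was at 31.2 to 37.9 CPM in S/S siChchd10 and 36.8 to 38.1 CPM in S/S siControl. It had 0 counts in all 8 shRNA libraries, which allows up to 0.213 CPM. The labels do not say whether the S/S cells of the shRNA table and of the siRNA table are the same line, and this difference leaves it in doubt, so no level or change is compared between the tables. The sums of 6 leukocyte markers were 0.736 to 1.04 CPM in A/A siChchd10 and 0.214 to 0.449 CPM in A/A siControl. They were 1.95 to 2.65 CPM in S/S siChchd10 and 1.79 to 2.03 CPM in S/S siControl. In the shRNA table they were 0 to 0.471 CPM in S/S shAtf4 and 0.11 to 0.643 CPM in S/S shControl. Cd3e and Adgre1 were at or near 0 in every group. The sums of 6 fibroblast markers, led by Col1a1, were 2.23 to 2.40 CPM in A/A siChchd10 and 4.53 to 5.25 CPM in A/A siControl. They were 5.20 to 7.46 CPM in S/S siChchd10 and 4.57 to 5.35 CPM in S/S siControl. In the shRNA table they were 2.76 to 14.1 CPM in S/S shAtf4 and 3.62 to 18.4 CPM in S/S shControl. Those of 5 endothelial markers were 2.14 to 3.00 CPM in A/A siChchd10 and 1.58 to 2.19 CPM in A/A siControl. They were 1.97 to 2.54 CPM in S/S siChchd10 and 1.98 to 2.28 CPM in S/S siControl. In the shRNA table they were 0.563 to 1.29 CPM in S/S shAtf4 and 1.75 to 3.10 CPM in S/S shControl. Sftpc, a marker of alveolar type II cells, was at 3.55 to 4.23 CPM in A/A siChchd10 and at or under 0.107 CPM in all other groups. The part of other cells in the results below was not tested.

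Levels were set side by side as sums per complex and per kilobase. Summed over its 17 subunits, complex V stood at 4619 ± 151 CPM in A/A siChchd10, 4071 ± 67.3 CPM in A/A siControl, 3569 ± 190.5 CPM in S/S siChchd10 and 3824 ± 235 CPM in S/S siControl (SD, n = 4). Complex IV stood at 1561 ± 66.6 CPM, 1378 ± 37.7 CPM, 1400.1 ± 94.3 CPM and 1488 ± 109.5 CPM in the same groups. Sums of complexes are not compared with each other, since their genes differ in number and length. Within a sum the most abundant genes weigh most. Per kilobase of transcript, Atp5b, the catalytic β subunit of ATP synthase, ranked highest within each of the 6 groups, with 681 CPM per kb in A/A siChchd10, 624 in A/A siControl, 672 in S/S siChchd10 and 739 in S/S siControl. Within the siRNA table the runner-up differed between genotypes. It was Atp5a1, the α subunit, in A/A cells (461 CPM per kb with siChchd10 and 420.0 with siControl). In the S/S siRNA groups it was Cox4i1, the regulatory subunit 4 of cytochrome c oxidase (373 CPM per kb with siChchd10 and 411 with siControl). In the shRNA table, read by itself, it was Atp5a1 (344 CPM per kb with shAtf4 and 319.9 with shControl). At the low end, Cox7a1, whose product is the heart and muscle form of subunit 7A, had 4.94 CPM per kb in A/A siChchd10 and 4.03 in A/A siControl. The transcript lengths behind these levels are those of 1 annotated principal transcript per gene, 231 to 3171 bases, since the isoforms used by the cells were not measured.

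**Figure D1:**
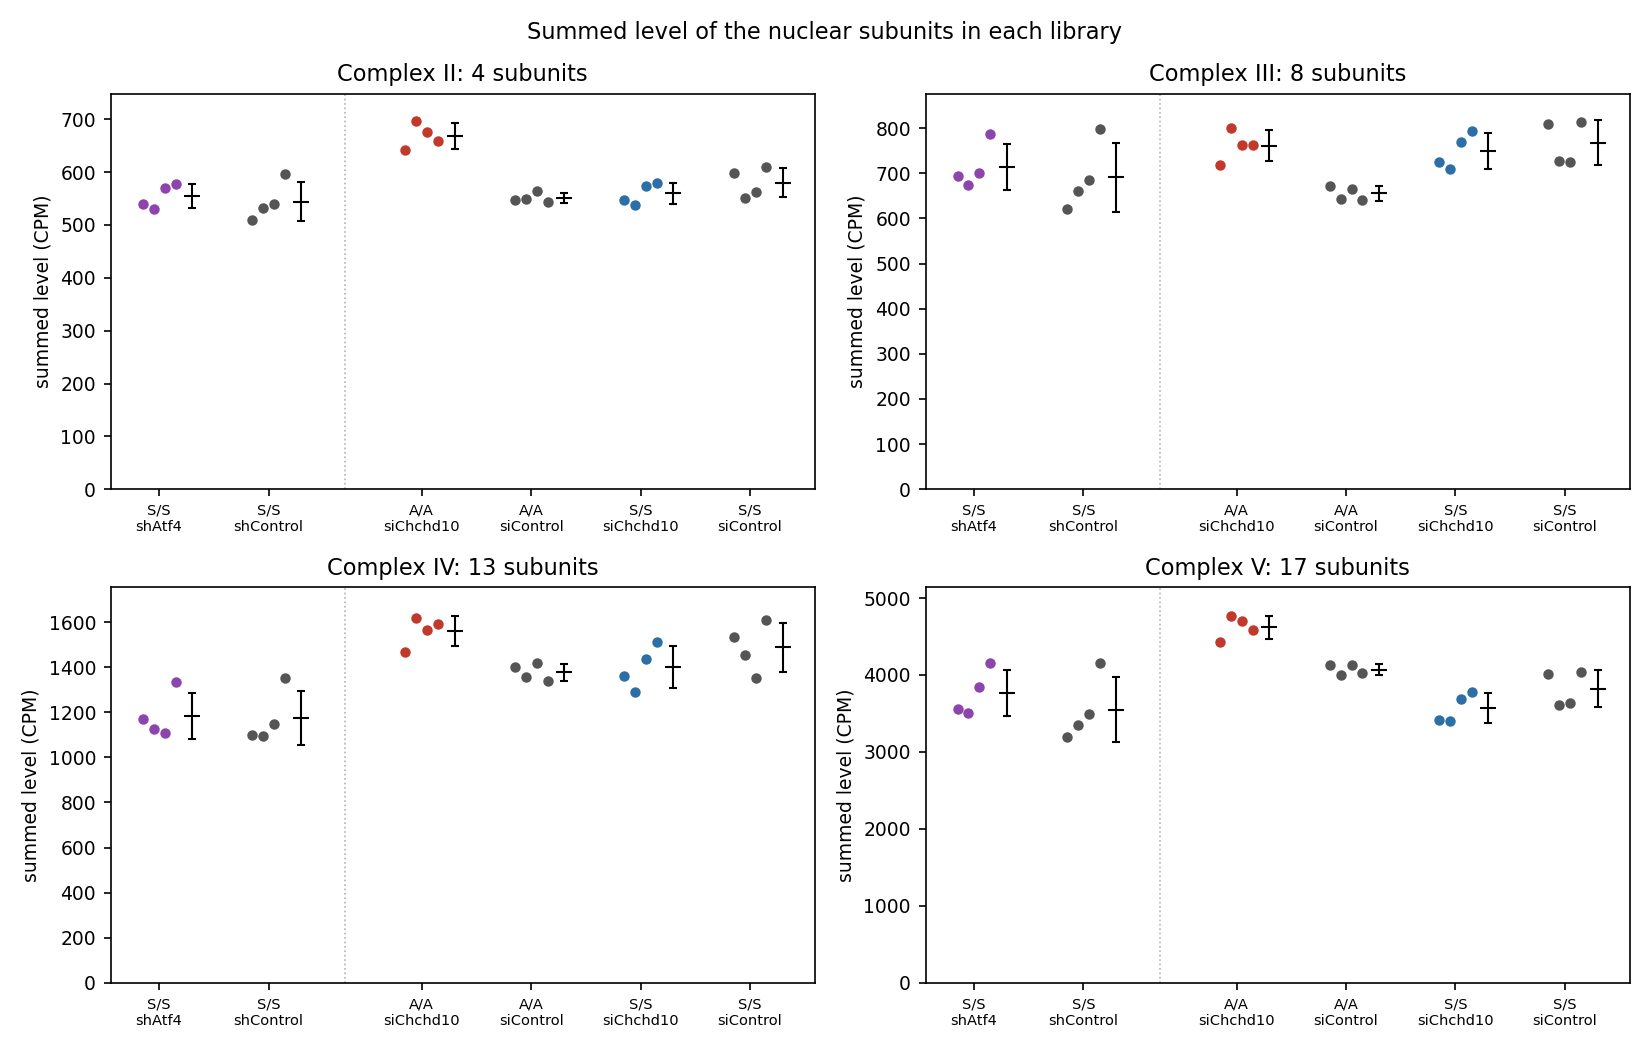
Summed level of the nuclear subunits of each complex in every library (CPM, vertical axes from 0), with mean and SD beside the points. The 4 A/A siChchd10 libraries lie above the 4 A/A siControl libraries in each panel, while the siChchd10 and siControl libraries of S/S cells overlap.

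After siChchd10 in A/A cells, nearly all of these mRNAs were higher than with the control siRNA, by a small amount each. Of the 42 members, 34 rose and 0 fell at an adjusted p under 0.05 (edgeR quasi-likelihood test, Benjamini-Hochberg over all 18138 genes tested), with a median log2 fold change of 0.21. Over all genes 53.7% were called, 26.5% higher and 27.2% lower, with a median of -0.01. All 4 members of complex II and all 8 of complex III rose, 7 of 13 in complex IV and 15 of 17 in complex V. For 34 members every A/A siChchd10 library lay above every A/A siControl library, which held for 25.0% of all genes, and the reverse held for 0 members and 24.9% of all genes. No member reached a fold of 1.5, and 14 of the called members reached 1.2. The summed levels were 1.21 times control for complex II, 1.16 for complex III, 1.13 for complex IV and 1.13 for complex V. In bulk RNA a change in the share of cells of a type and a change in RNA per cell cannot be told apart.

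In complex II, the succinate dehydrogenase of the citric acid cycle, Sdhb encodes the iron-sulfur subunit. It had 68.3, 74.6, 75.4 and 73.8 CPM in A/A siChchd10, against 59.6, 56.0, 55.2 and 55.8 CPM in A/A siControl. All treated libraries were higher, and the log2 fold change of Sdhb was 0.37 (SE 0.0532, adjusted p = 1.49e-06). Sdhc, an anchor in the inner membrane, had 128, 143, 138 and 132 CPM in A/A siChchd10, against 109.6, 107, 111 and 107 CPM in A/A siControl. The groups did not overlap, and the rise was 0.31 (SE 0.0446, adjusted p = 9.2e-07). Sdha, the flavoprotein that oxidises succinate, had 339, 364, 347 and 336 CPM in A/A siChchd10, against 281, 287, 295 and 286 CPM in A/A siControl and rose by 0.27 (SE 0.0378, adjusted p = 8.37e-07). The other anchor gene, Sdhd, rose by 0.21 (SE 0.0463, adjusted p = 0.00045).

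In complex III, which oxidises ubiquinol, Uqcrb encodes a subunit close to the quinone site. It had 63.4, 69.3, 65.2 and 68.6 CPM in A/A siChchd10, against 54.9, 53.9, 52.7 and 52.1 CPM in A/A siControl, and rose by 0.32 (SE 0.0497, adjusted p = 3.92e-06). Uqcr11, a small supernumerary subunit, had 63.8, 72.6, 65.9 and 70.3 CPM in A/A siChchd10, against 56.0, 54.5, 59.5 and 54.0 CPM in A/A siControl. It rose by 0.28 (SE 0.058, adjusted p = 0.000182), with no overlap between the groups. The core subunit Uqcrc2 and the Rieske iron-sulfur subunit Uqcrfs1 rose by 0.25 and 0.22 (adjusted p = 2.32e-05 and 0.000124), and Uqcrh, the hinge protein that binds cytochrome c1, by 0.25 (adjusted p = 0.000132). Uqcrc1, the other core subunit, had the smallest rise of the complex, 0.12 (adjusted p = 0.0396).

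In complex IV, cytochrome c oxidase, a smaller share of members passed than in the other complexes, 7 of 13. Apart from the least abundant Cox7a1 and Cox6c2, the values of its members ran from 0.10 to 0.29. Cox5b, which binds zinc on the matrix side, had 71.0, 79.0, 75.6 and 80.4 CPM in A/A siChchd10, against 65.9, 61.0, 61.7 and 60.9 CPM in A/A siControl. It rose by 0.29 (SE 0.0627, adjusted p = 0.000377), with A/A siControl replicate 1 the highest of the controls. Cox6b1, which faces the intermembrane space, had 139.8, 153, 150.1 and 156 CPM in A/A siChchd10, against 129, 122, 129.7 and 121 CPM in A/A siControl and rose by 0.25 (SE 0.0523, adjusted p = 0.000179). Cox4i1, Cox6c, Cox7a2, Cox7b and Cox7c rose by 0.18 to 0.25. The 6 members of the complex that did not pass were Cox5a (0.11 on the log2 scale, adjusted p = 0.0575), Cox6a1 (0.10), Cox7a2l (0.10), Cox8a (0.14) and the least abundant Cox7a1 (0.29) and Cox6c2 (-0.26). Leaving out A/A siControl replicate 1 added calls for Cox5a, Cox6a1 and Cox7a2l. When the 8 A/A libraries were fitted alone, Cox5a, Cox6a1, Cox7a2l and Cox8a were called higher (adjusted p = 0.0132, 0.0175, 0.0464 and 0.00863).

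In complex V the largest rises were in small subunits of both parts of the enzyme. Atp5j2, subunit f of the membrane part, had 166, 197, 191 and 189 CPM in A/A siChchd10, against 147, 132, 140.3 and 134 CPM in A/A siControl. Every treated library was higher, and the rise of 0.43 was the largest of the 42 members (SE 0.0666, adjusted p = 1.67e-05). Atp5e, the ε subunit of the central stalk, had 98.2, 108, 103 and 109 CPM in A/A siChchd10, against 85.9, 78.5, 81.2 and 77.7 CPM in A/A siControl and rose by 0.37 (SE 0.0563, adjusted p = 3.9e-06). The groups again did not overlap. Atp5l, subunit g of the membrane part, had 52.1, 57.4, 55.1 and 56.2 CPM in A/A siChchd10, against 46.5, 43.5, 43.3 and 42.2 CPM in A/A siControl and rose by 0.33 (SE 0.0592, adjusted p = 3.38e-05). The peripheral stalk genes also rose, Atp5o (OSCP) by 0.32, Atp5pb (subunit b) by 0.29, Atp5h (subunit d) by 0.28 and Atp5j (coupling factor 6) by 0.28. The catalytic head moved less, with 0.13 for Atp5a1 and 0.13 for Atp5b (adjusted p = 0.00892 and 0.0298) and 0.16 for the γ subunit Atp5c1 (adjusted p = 0.00282). Atp5d, the δ subunit, did not pass (-0.05, adjusted p = 0.312), and when libraries were scaled by their totals alone it was called lower (-0.08, adjusted p = 0.0415), the only member with a fall in any alternative scaling. Of the 34 calls in this comparison, 29 held when each of the 8 libraries was left out in turn. The other 5 lost the threshold at least once, with highest adjusted p of 0.178 for Uqcrc1, 0.0733 for Uqcrq, 0.0743 for Atp5b, 0.177 for Atp5k and 0.0539 for Atp5mpl. The libraries concerned were A/A siControl replicates 2 and 4 and A/A siChchd10 replicates 2 and 3. Without A/A siControl replicate 1, 38 members rose and 0 fell.

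**Figure D2:**
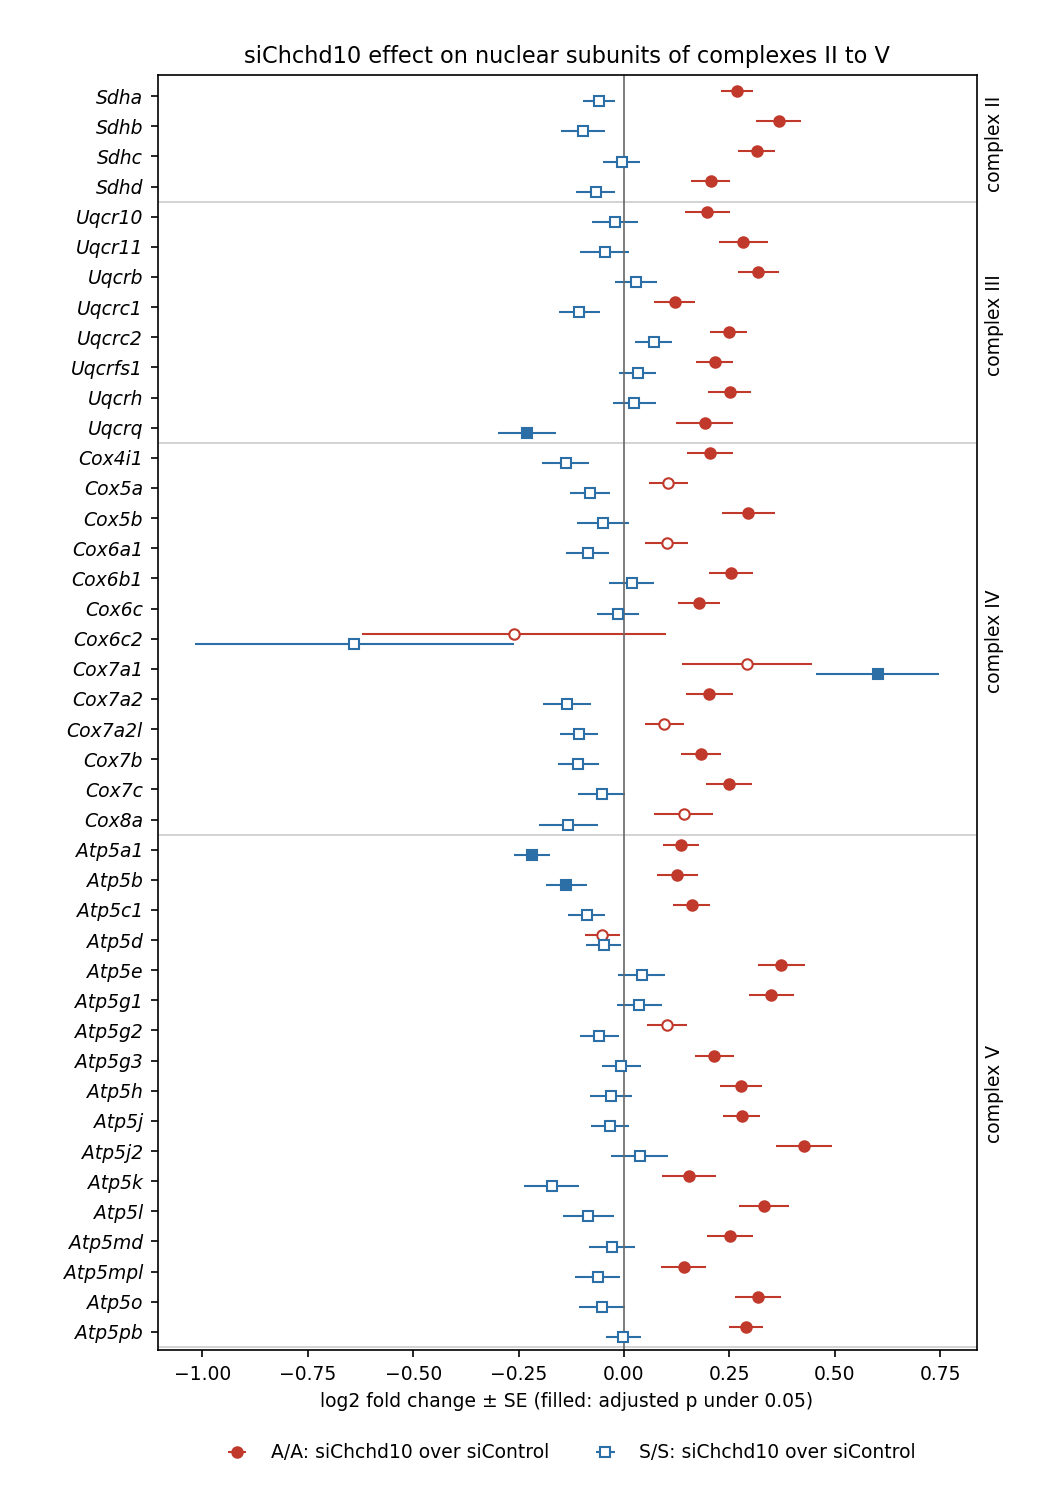
Log2 fold change of each of the 42 subunit genes after siChchd10 (horizontal axis, ± SE), in A/A cells (red circles) and in S/S cells (blue squares), ordered by complex. Filled symbols have an adjusted p under 0.05. Most A/A values lie to the right of 0, and most S/S values lie near or below 0.

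The promoters of all members with an entry were read for known motifs, whatever their change. RefSeq's table for GRCm38.p6, the assembly that mm10 names, matched 33 of the 42 members with 36 start sites. The 250 bases before each start were read on both strands for 5 short motifs. The letters GCATGCG, the core of the site of NRF1, a regulator of nuclear respiratory genes, stood in 16.7% of the 36 member promoters and 3.02% of all 32851 promoters in the table. CCGGAAG, which GABP and other ETS factors bind, stood in 25.0% and 6.91%. AAGATGG, the core for YY1, stood in 2.78% and 4.49%, and AAGGTCA, the site of the estrogen-related receptors, in 5.56% and 4.08%. TGATGNAA, the composite site of ATF4 with C/EBP factors, stood in 0 of 36 member promoters and in 3.45% of all. A match is a description of letters and not a bound site.
The promoters below are those of Sdhb and Atp5l, with the largest differences between the siChchd10 effects in their complexes, of Atp5j, which was higher in A/A than in S/S cells, and of Cox7a2l, which was lowest in A/A against S/S cells. Capitals mark the motif letters, and each sequence ends at the base before the start.
Sdhb, chr4:140961021-140961270, + strand: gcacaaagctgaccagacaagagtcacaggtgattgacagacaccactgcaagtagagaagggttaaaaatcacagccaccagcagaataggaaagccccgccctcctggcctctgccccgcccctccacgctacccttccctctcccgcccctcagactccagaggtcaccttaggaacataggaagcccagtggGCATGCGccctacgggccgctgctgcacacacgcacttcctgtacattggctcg
Atp5l, chr9:44920743-44920992, - strand: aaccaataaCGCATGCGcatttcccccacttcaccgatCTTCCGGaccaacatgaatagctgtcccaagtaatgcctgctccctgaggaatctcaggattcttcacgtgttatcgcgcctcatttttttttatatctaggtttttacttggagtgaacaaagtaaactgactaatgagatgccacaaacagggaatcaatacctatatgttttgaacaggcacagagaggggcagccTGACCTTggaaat
Atp5j, chr16:84834977-84835226, - strand: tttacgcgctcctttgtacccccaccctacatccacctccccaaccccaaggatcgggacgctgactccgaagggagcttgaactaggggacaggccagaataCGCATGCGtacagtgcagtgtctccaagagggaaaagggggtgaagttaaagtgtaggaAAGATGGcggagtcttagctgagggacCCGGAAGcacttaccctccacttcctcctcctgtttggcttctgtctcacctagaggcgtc
Cox7a2l, chr17:83514334-83514583, - strand: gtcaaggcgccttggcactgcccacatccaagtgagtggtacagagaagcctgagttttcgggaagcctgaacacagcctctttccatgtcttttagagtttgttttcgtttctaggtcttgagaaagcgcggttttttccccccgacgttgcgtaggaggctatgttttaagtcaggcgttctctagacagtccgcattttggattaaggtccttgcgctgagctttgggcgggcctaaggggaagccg
In Sdhb the NRF1 letters began at -54. In Atp5l they began at -241, with the GABP letters at -212 and the ERR letters at -13, both on the opposite strand. In Atp5j the NRF1 letters began at -147, followed by the YY1 letters at -88 and the GABP letters at -61. The capitals CGCATGCG in Atp5l and Atp5j read as the NRF1 letters on both strands, so the overlapping matches there are 1 palindrome. Atp5j has a further annotated start with none of the motifs in its window, and the Cox7a2l window held none.

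In S/S cells most of these mRNAs did not pass the test after siChchd10. Of the 42 members, 1 rose and 3 fell, against 28.0% of all genes called, 15.0% higher and 13.0% lower, and the members' median was -0.05. The value was negative for 33 members and positive for 9. Atp5a1 had 546, 538, 584 and 589 CPM in S/S siChchd10, against 675, 624, 640.4 and 685 CPM in S/S siControl. Every siChchd10 library was lower, and Atp5a1 fell by 0.22 (SE 0.0427, adjusted p = 0.00026). Uqcrq, a small subunit of complex III, had 78.2, 75.0, 87.9 and 93.1 CPM in S/S siChchd10, against 101, 93.1, 88.9 and 109 CPM in S/S siControl. It fell by 0.23 (SE 0.0683, adjusted p = 0.0156), although S/S siChchd10 replicate 4 reached into the control range. Atp5b had 1223, 1238, 1325 and 1364 CPM in S/S siChchd10, against 1504, 1309, 1353 and 1495 CPM in S/S siControl and fell by 0.14 (SE 0.0489, adjusted p = 0.0365) with overlap. The member that rose was Cox7a1, at a low level, with 3.25, 3.03, 2.49 and 3.21 CPM in S/S siChchd10, against 2.08, 1.52, 1.96 and 2.37 CPM in S/S siControl. All treated libraries were higher, and the rise was 0.60 (SE 0.146, adjusted p = 0.00228). In complex II the smallest p belonged to Sdhb, which did not pass, with 64.1, 61.7, 71.0 and 71.2 CPM in S/S siChchd10, against 77.0, 66.5, 67.1 and 76.3 CPM in S/S siControl (-0.10, SE 0.0531, adjusted p = 0.186).

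The S/S control libraries varied together. Summed over all 42 members, S/S siChchd10 had 6055, 5935, 6465 and 6659 CPM, and S/S siControl had 6951, 6338, 6276 and 7074 CPM. Replicates 1 and 4 of the control stood above its replicates 2 and 3 by more than the difference between the group means. The count of calls ranged from 2 to 10 when each library was left out. It was 2 without S/S siControl replicate 4 or S/S siChchd10 replicate 1 or 2, 7 without S/S siControl replicate 2 or S/S siChchd10 replicate 3, and 10 without S/S siControl replicate 3 or S/S siChchd10 replicate 4. Atp5a1 and Cox7a1 kept their calls throughout. Uqcrq lost it without S/S siControl replicate 4 or S/S siChchd10 replicate 1 or 2 (highest adjusted p = 0.0586). Atp5b lost it without replicate 1 or 4 of S/S siControl or replicate 1 or 2 of S/S siChchd10 (highest adjusted p = 0.132), and when the 8 S/S libraries were fitted alone (adjusted p = 0.073).

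The siChchd10 effect differed between A/A and S/S cells for most members, where genotype cannot be told apart from line or tumour of origin. The test of the difference (A/A effect minus S/S effect, in the same fit) called 38 of 42 members higher and 0 lower, with a median difference of 0.29 on the log2 scale. Of all genes, 16.7% were called higher and 18.9% lower. Every member of complexes II and III passed, 11 of 13 in complex IV and 15 of 17 in complex V. The 4 that did not pass were Atp5d (-0.00332), Atp5g2 (0.16, adjusted p = 0.0622), Cox6c2 (0.38) and Cox7a1 (-0.31, adjusted p = 0.273).

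Sdhb had the largest difference, 0.46 (SE 0.0751, adjusted p = 2.2e-05), and Sdha followed in complex II with 0.33 (SE 0.0535, adjusted p = 2.36e-05). In S/S cells Sdha had 248, 243, 257 and 249 CPM in S/S siChchd10, against 264, 250.1, 257 and 267 CPM in S/S siControl, so its groups overlapped there and did not overlap in A/A cells. In complex III the difference was 0.42 for Uqcrq (SE 0.0968, adjusted p = 0.00195), which had 76.8, 87.0, 81.6 and 83.8 CPM in A/A siChchd10, against 75.8, 69.1, 76.0 and 67.5 CPM in A/A siControl. It was 0.33 for Uqcr11 (adjusted p = 0.00268). In complex IV, Cox5b and Cox4i1 differed by 0.35 and 0.34 (adjusted p = 0.0037 and 0.00106). Cox4i1 had 309, 349, 335 and 329 CPM in A/A siChchd10, against 297, 280.2, 294 and 276 CPM in A/A siControl. In the S/S groups it had 267, 256, 289 and 301 CPM in S/S siChchd10, against 317, 293, 278 and 337 CPM in S/S siControl. Its A/A libraries did not overlap, and its S/S libraries did. In complex V the difference was 0.42 for Atp5l (SE 0.0841, adjusted p = 0.00035) and 0.39 for Atp5j2 (SE 0.0943, adjusted p = 0.00285). Of the 38 calls, 31 held with each of the 16 libraries left out in turn. Those lost at least once were Uqcrc2, Uqcrfs1, Cox5a, Cox6a1, Cox6c, Cox8a and Atp5mpl, with highest adjusted p between 0.054 and 0.0903. For Cox6a1 any of 10 of the 16 libraries sufficed, all but S/S siControl replicates 2 and 3, S/S siChchd10 replicate 4, A/A siControl replicates 1 and 3 and A/A siChchd10 replicate 1, and library totals alone also ended its call (adjusted p = 0.0607). For Cox8a any of 5 did, S/S siControl replicate 4, S/S siChchd10 replicates 1 and 3 and A/A siChchd10 replicates 2 and 4. Without A/A siControl replicate 1, 39 members were called higher and 0 lower.

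**Figure D3:**
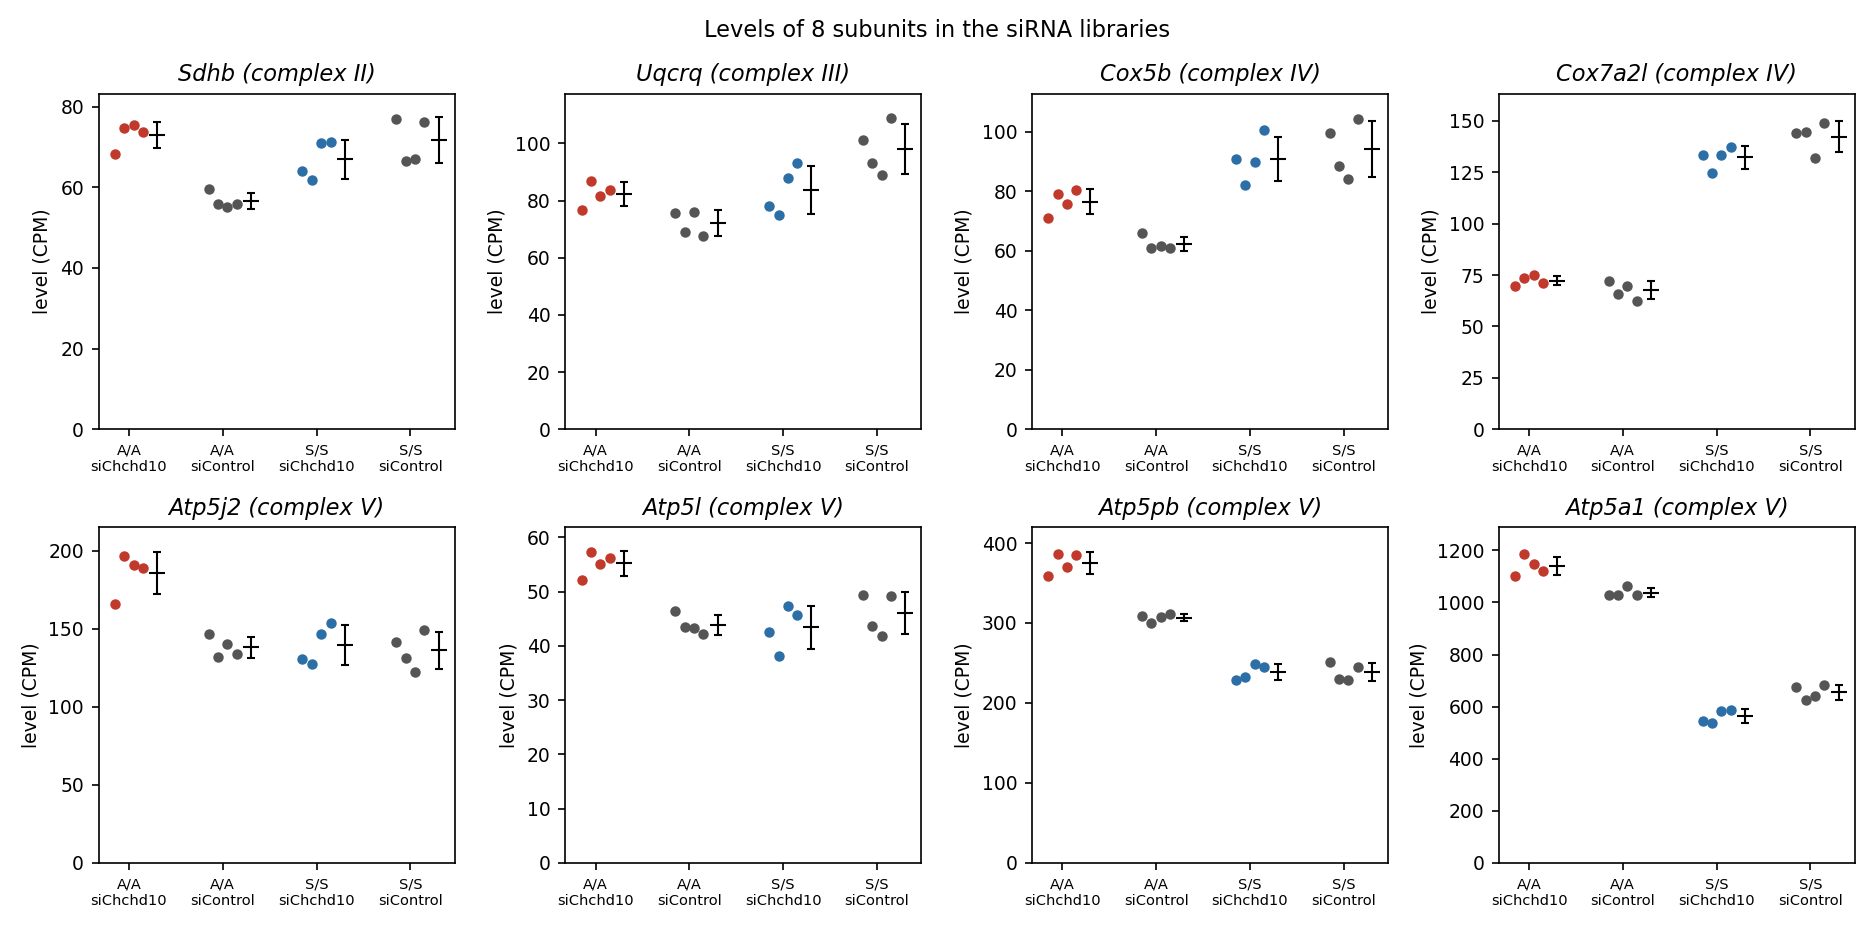
Level of 8 subunit genes in each siRNA library (CPM, axes from 0, 4 points per group with mean and SD beside them). Sdhb and Uqcrq are higher in A/A siChchd10 than in A/A siControl, Cox7a2l is low in both A/A groups, and Atp5a1 and Atp5pb are high in both.

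The genotypes were also compared directly, with the same limit on line and tumour of origin, first with the control siRNA. A/A siControl and S/S siControl differed in both directions, and the members called lower outnumbered those called higher. Of 42 members 11 were higher and 19 lower, against 35.6% and 34.7% of all genes (70.2% together), with a member median of -0.11. The libraries did not overlap for 10 members above and 14 below, against 32.8% and 31.8% of all genes. By complex, 1 rose and 3 fell of 4 in complex II, 1 rose and 6 fell of 8 in complex III, 4 rose and 4 fell of 13 in complex IV, and 5 rose and 6 fell of 17 in complex V. The summed level was 0.853 times the S/S level for complex III, where every A/A library was lower, 0.95 for complex II, 0.926 for complex IV and 1.06 for complex V, where the libraries overlapped.

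Within complexes the subunits went in opposite directions. In complex II, Sdha was higher in A/A siControl (281, 287, 295 and 286 CPM) than in S/S siControl (264, 250.1, 257 and 267 CPM), by 0.15 (SE 0.0379, adjusted p = 0.0011). Sdhc fell by 0.36 and Sdhb by 0.34 (SE 0.0447, adjusted p = 3.81e-08 for Sdhc). Sdhb had 59.6, 56.0, 55.2 and 55.8 CPM in A/A siControl, against 77.0, 66.5, 67.1 and 76.3 CPM in S/S siControl, with no overlap. In complex III, Uqcrq had 75.8, 69.1, 76.0 and 67.5 CPM in A/A siControl, against 101, 93.1, 88.9 and 109 CPM in S/S siControl and fell by 0.44 (SE 0.0686, adjusted p = 7.95e-06). All A/A libraries were lower. Uqcrc1 fell by 0.37 (adjusted p = 1.11e-07), and Uqcrb rose by 0.11 (adjusted p = 0.049). That last call ended without S/S siControl replicate 3 or 4 or A/A siControl replicate 1, 2 or 3 (highest adjusted p = 0.245), with DESeq2 (adjusted p = 0.144), with DESeq2 size factors (adjusted p = 0.0946) and when the 8 siControl libraries were fitted alone (adjusted p = 0.0503).

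Of the 30 calls 23 held with each of the 8 libraries left out in turn, and the count ranged from 26 to 32. Complex IV held the largest fall of the 42 members. Cox7a2l encodes a protein related to subunit 7A that joins complexes III and IV into supercomplexes. It had 72.2, 65.8, 69.9 and 62.6 CPM in A/A siControl, against 144, 144, 132 and 149 CPM in S/S siControl. Every A/A library was far below every S/S library, and Cox7a2l fell by 1.07 (SE 0.0463, adjusted p = 4.79e-18). Cox5b had 65.9, 61.0, 61.7 and 60.9 CPM in A/A siControl, against 99.5, 88.5, 84.1 and 104 CPM in S/S siControl and fell by 0.59 (SE 0.0627, adjusted p = 1.28e-08). In contrast Cox6a1 rose by 0.28 and Cox7b by 0.26 (adjusted p = 2.65e-05 and 2.41e-05). In complex V, Atp5a1 had 1028, 1030.3, 1062 and 1031 CPM in A/A siControl, against 675, 624, 640.4 and 685 CPM in S/S siControl. Every A/A library was higher, and the rise of 0.66 was the largest of the members (SE 0.0428, adjusted p = 4.99e-14). Atp5pb had 309, 299.9, 308 and 311 CPM in A/A siControl, against 251, 230.5, 229 and 245 CPM in S/S siControl and rose by 0.36 (SE 0.041, adjusted p = 6.56e-09). Atp5b, the partner of Atp5a1 in the catalytic head, fell by 0.24 (adjusted p = 6.59e-05), as did Atp5h by 0.25 (adjusted p = 6.62e-05) and Atp5g2, a gene for subunit c, by 0.49 (SE 0.0473, adjusted p = 3.2e-10). The exons of Atp5a1, Atp5pb and Atp5j overlap those of Haus1, Wdr77 and Gabpa on the opposite strand, and the strand setting of the counting is not given in the sources used here.

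With siChchd10 in both genotypes the balance was the other way. A/A siChchd10 exceeded S/S siChchd10 for 23 members and fell below it for 7, against 34.7% and 35.8% of all genes (70.5% together), with a median of 0.22. The libraries did not overlap for 21 members above and 5 below, against 31.4% and 32.3% of all genes. Summed levels were 1.19 times the S/S level for complex II and 1.29 for complex V, where every A/A library was higher, 1.11 for complex IV and 1.02 for complex III, where they overlapped. Much of this lay in abundant genes. Sdha stood at 346 CPM in A/A siChchd10 and 249 CPM in S/S siChchd10, within complex II sums of 668 and 560 CPM. Atp5a1 stood at 1139 and 564 CPM, within complex V sums of 4619 and 3569 CPM. Taken singly, every A/A library was higher for 1 of 4 members of complex II and 11 of 17 of complex V. The difference between this comparison and the one with siControl is the same interaction as above, which 38 members passed. The libraries of these genotype comparisons are separate, but they shared a fit and set the same genotypes side by side. Of all genes, 70.2% were called with siControl and 70.5% with siChchd10. All 11 members higher in A/A with siControl were among the 23 higher with siChchd10, and 6 of the 19 lower with siControl were among the 7 lower with siChchd10. The share of all genes called in the same direction in both comparisons was not counted. Whether the members overlap more than other genes was therefore not tested. Sdhb and Sdhd were called lower in A/A with siControl and higher with siChchd10 (Sdhb -0.34 and 0.12, Sdhd -0.15 and 0.12).

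Atp5a1 again led, with 1104, 1185, 1146 and 1123 CPM in A/A siChchd10, against 546, 538, 584 and 589 CPM in S/S siChchd10, a rise of 1.01 (SE 0.0431, adjusted p = 2.28e-18). The groups were far apart. Atp5j had 109, 119, 114 and 118 CPM in A/A siChchd10, against 67.2, 71.8, 74.9 and 76.3 CPM in S/S siChchd10 and rose by 0.66 (SE 0.0445, adjusted p = 9.05e-14). Atp5pb rose by 0.65 (SE 0.041, adjusted p = 2.09e-14). Sdha rose by 0.47 in complex II (adjusted p = 4.6e-12), Uqcrb and Uqcr11 by 0.40 and 0.31 in complex III (adjusted p = 3.17e-08 and 3.31e-05), and Cox7b and Cox6a1 by 0.55 and 0.46 in complex IV (adjusted p = 3.64e-11 and 5.47e-09). Cox7a2l stayed low in A/A cells, with 69.8, 73.6, 74.8 and 71.1 CPM in A/A siChchd10, against 133, 125, 134 and 137 CPM in S/S siChchd10, a fall of 0.87 (SE 0.046, adjusted p = 3.89e-16). Cox7a1 fell by 0.63 (adjusted p = 0.000337) and Atp5g2 by 0.33 (adjusted p = 4.74e-07). The small calls for Sdhb (0.12), Uqcrc1 (-0.14), Uqcrfs1 (-0.11) and Atp5d (-0.12) each ended without any of 3 to 5 libraries (highest adjusted p = 0.0972, 0.0929, 0.243 and 0.103). For Uqcrc1, Uqcrfs1 and Atp5d these included S/S siChchd10 replicate 4 and A/A siChchd10 replicates 1 and 4. For Uqcrfs1 they also included S/S siChchd10 replicate 2 and A/A siChchd10 replicate 3. For Sdhb they were S/S siChchd10 replicates 1 and 2 and A/A siChchd10 replicates 2 and 3. DESeq2 called neither Sdhb (adjusted p = 0.062) nor Uqcrfs1 (adjusted p = 0.0548).

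**Figure D4:**
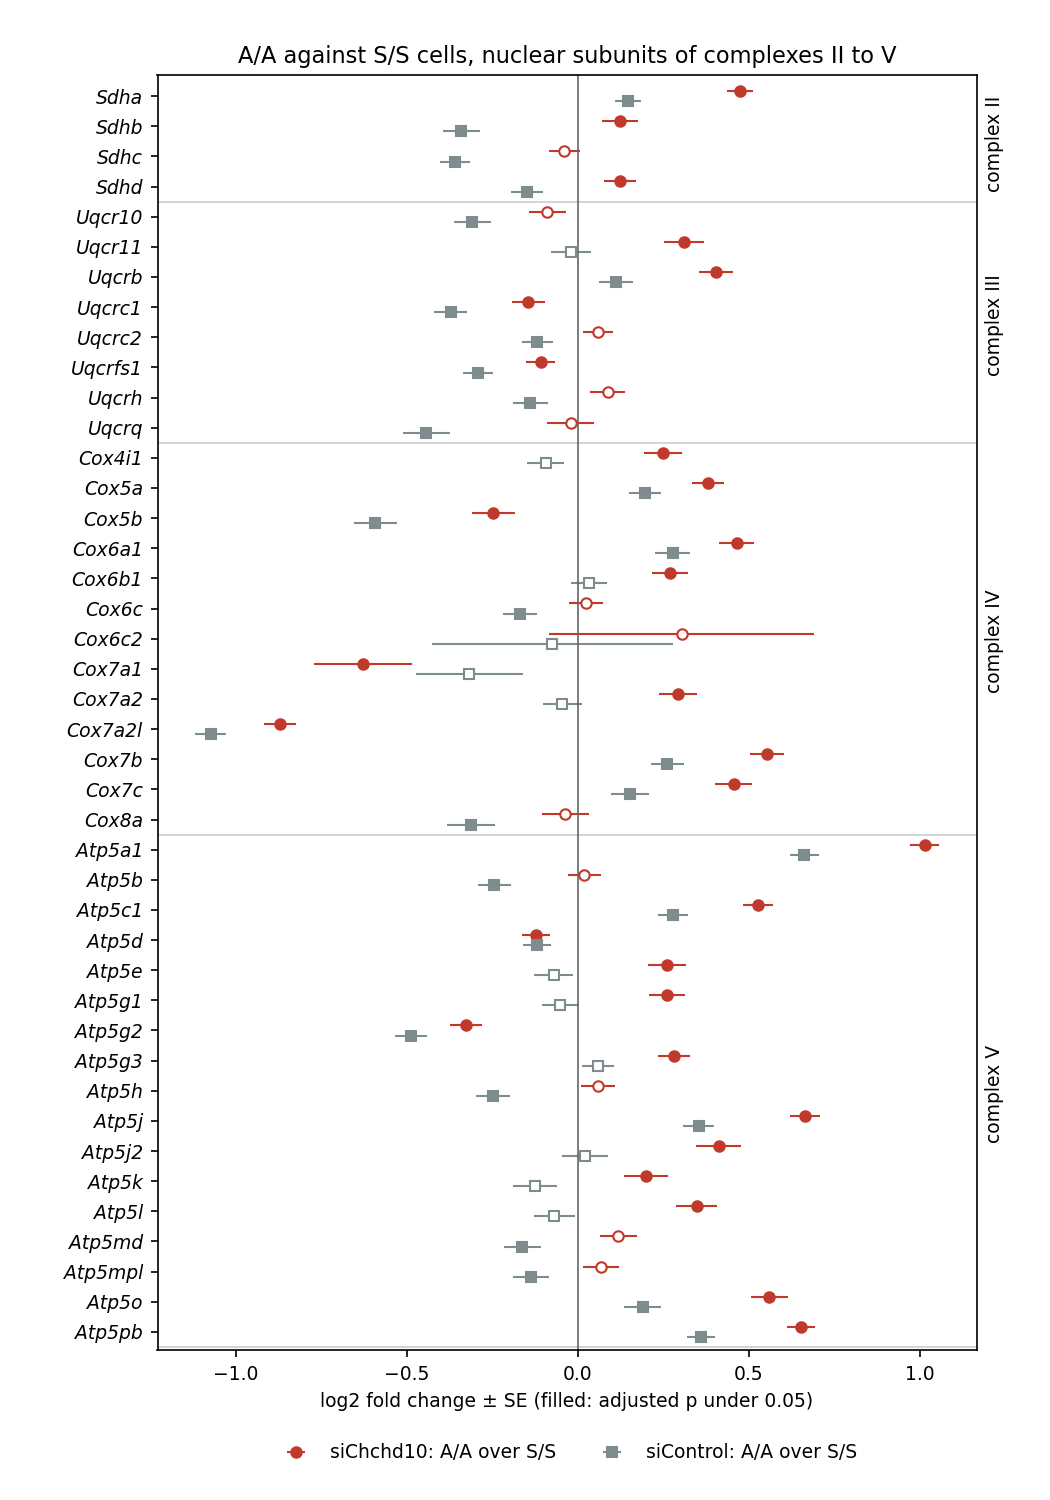
Log2 fold change of A/A over S/S cells for each of the 42 subunit genes (horizontal axis, ± SE), with siChchd10 (red circles) and with siControl (grey squares). Filled symbols have an adjusted p under 0.05. The red circles lie to the right of the grey squares for 40 of the 42 genes, and Cox7a2l and Atp5a1 mark the ends of the range in both.

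Several subunits are encoded by more than 1 gene. Cox4i1, the ubiquitous form of subunit 4, stood at 331 ± 16.6 CPM in A/A siChchd10 and 306 ± 26.0 CPM in S/S siControl, while its lung-enriched partner Cox4i2 had at most 0.818 CPM in any library. The muscle forms Cox6a2 and Cox8b and the testis forms Cox6b2 and Cox8c stayed below 1 CPM in every library. Striated muscle markers were not absent, with a sum of 52.0 to 56.4 CPM in A/A siChchd10 and 70.1 to 77.9 CPM in A/A siControl, most of it Tnnt2. It was 69.4 to 82.4 CPM in S/S siChchd10 and 72.4 to 93.6 CPM in S/S siControl. In the shRNA table it was 183 to 241 CPM in S/S shAtf4 and 166 to 303 CPM in S/S shControl. Ckm, a defining muscle marker, stayed at or under 0.128 CPM, and Myh7 stood at 14.2 to 17.3 CPM in A/A siChchd10 and 2.93 to 3.74 CPM in A/A siControl. For subunit c of the ATP synthase ring, encoded by Atp5g1, Atp5g2 and Atp5g3 with the same mature protein, Atp5g3 gave most of the transcript per kilobase. Its share was 65.2% ± 0.577 in A/A siChchd10, 65.5% ± 0.368 in A/A siControl, 60.2% ± 1.23 in S/S siChchd10 and 60.1% ± 0.895 in S/S siControl (percent of the 3 genes, SD, n = 4). The share of Atp5g2 was 15.2% ± 0.435 and 16.5% ± 0.164 in the A/A groups, against 21.4% ± 0.986 and 22.1% ± 0.883 in the S/S groups, with no overlap between genotypes. After siChchd10 in A/A cells Atp5g1 and Atp5g3 rose by 0.35 and 0.21 (adjusted p = 3.38e-06 and 0.0003), and Atp5g2 did not pass (0.10, adjusted p = 0.0729).

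The subunit 7A family differed in make-up between genotypes. Of the summed level per kilobase of Cox7a1, Cox7a2 and Cox7a2l, Cox7a2l held 34.0% ± 0.985 in A/A siChchd10 and 35.7% ± 1.24 in A/A siControl, against 52.7% ± 1.22 in S/S siChchd10 and 52.9% ± 0.576 in S/S siControl. Cox7a2 held 63.5% ± 1.23 and 62.1% ± 1.18 in the A/A groups, against 44.0% ± 1.57 and 45.1% ± 0.467 in the S/S groups. The level of Cox7a2 itself with siControl was 72.1 ± 3.55 CPM in A/A and 74.4 ± 5.22 CPM in S/S cells (-0.05, adjusted p = 0.488). In the shRNA table the share of Cox7a2l was 45.9% ± 5.10 with shAtf4 and 48.3% ± 9.11 with shControl, with overlap.

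In S/S cells shAtf4 moved few of these mRNAs past the threshold. Without pairing the libraries, 0 of 42 members were called, against 0.538% of all genes, and DESeq2 also called 0. Uqcrc1 and Atp5c1 were the 2 members with an unadjusted p under 0.05. The members' median was 0.03. Every shAtf4 library lay above every control library for 2 members and below for 0, against 3.22% and 3.57% of all genes. Replicate 4 of both groups deviated together (r = 0.79), and same-numbered libraries among replicates 1 to 3 had r of 0.24 to 0.45. Libraries of unlike number among replicates 1 to 3 had r of 0.12 to 0.31, so pairing by number is not settled for them. With the number as a block 4 members rose and 2 fell, against 20.2% of all genes called. Atp5c1, the γ subunit that turns inside the ATP synthase head, had 259, 237, 274 and 278 CPM in S/S shAtf4, against 208, 221, 215 and 229 CPM in S/S shControl. Every shAtf4 library was higher (0.26, SE 0.0815, adjusted p = 0.26), and with the block the rise was 0.26 (adjusted p = 0.00423). Uqcrc1 had 187, 202, 216 and 211 CPM in S/S shAtf4, against 143, 168, 167 and 190.3 CPM in S/S shControl. The groups overlapped only through replicate 4 of the control (0.29, SE 0.101, adjusted p = 0.341), and with the block the rise was 0.29 (adjusted p = 0.00196). Sdhb had 90.6, 93.2, 102 and 121 CPM in S/S shAtf4, against 73.1, 81.5, 80.5 and 117 CPM in S/S shControl. Replicate 4 was highest in both groups (0.21, SE 0.159, adjusted p = 0.713), and with the block the rise was 0.22 (adjusted p = 0.0178).

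Cox5a was the other member to rise with the block (0.23, adjusted p = 0.027, against 0.21 and adjusted p = 0.798 without it). Uqcrh and Cox7a2l fell with it, by 0.32 and 0.22 (adjusted p = 0.0137 and 0.0492). Cox7a2l had 87.4, 88.4, 80.5 and 73.9 CPM in S/S shAtf4, against 110.4, 120.0, 88.6 and 71.3 CPM in S/S shControl, and without the block its value was -0.24 (adjusted p = 0.662). Replicate 4 was below the others in both groups. Without replicate 4 of both groups and without the block, Sdhb, Uqcrc1, Cox5a and Atp5c1 were called higher (adjusted p = 0.039, 0.0288, 0.0155 and 0.0475) and 0 members lower, against 11.7% of all genes called. Leaving out any 1 of the 8 libraries gave 0 calls each time. Without the block the errors of the abundant subunits were wide beside values of this size, with 0.11 (SE 0.0866) for Atp5a1, 0.09 (SE 0.12) for Atp5b, 0.01 (SE 0.0856) for Sdha and 0.03 (SE 0.116) for Cox4i1. Summed levels were 1.02, 1.03, 1.01 and 1.06 times control for complexes II, III, IV and V, with overlap in each.

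**Figure D5:**
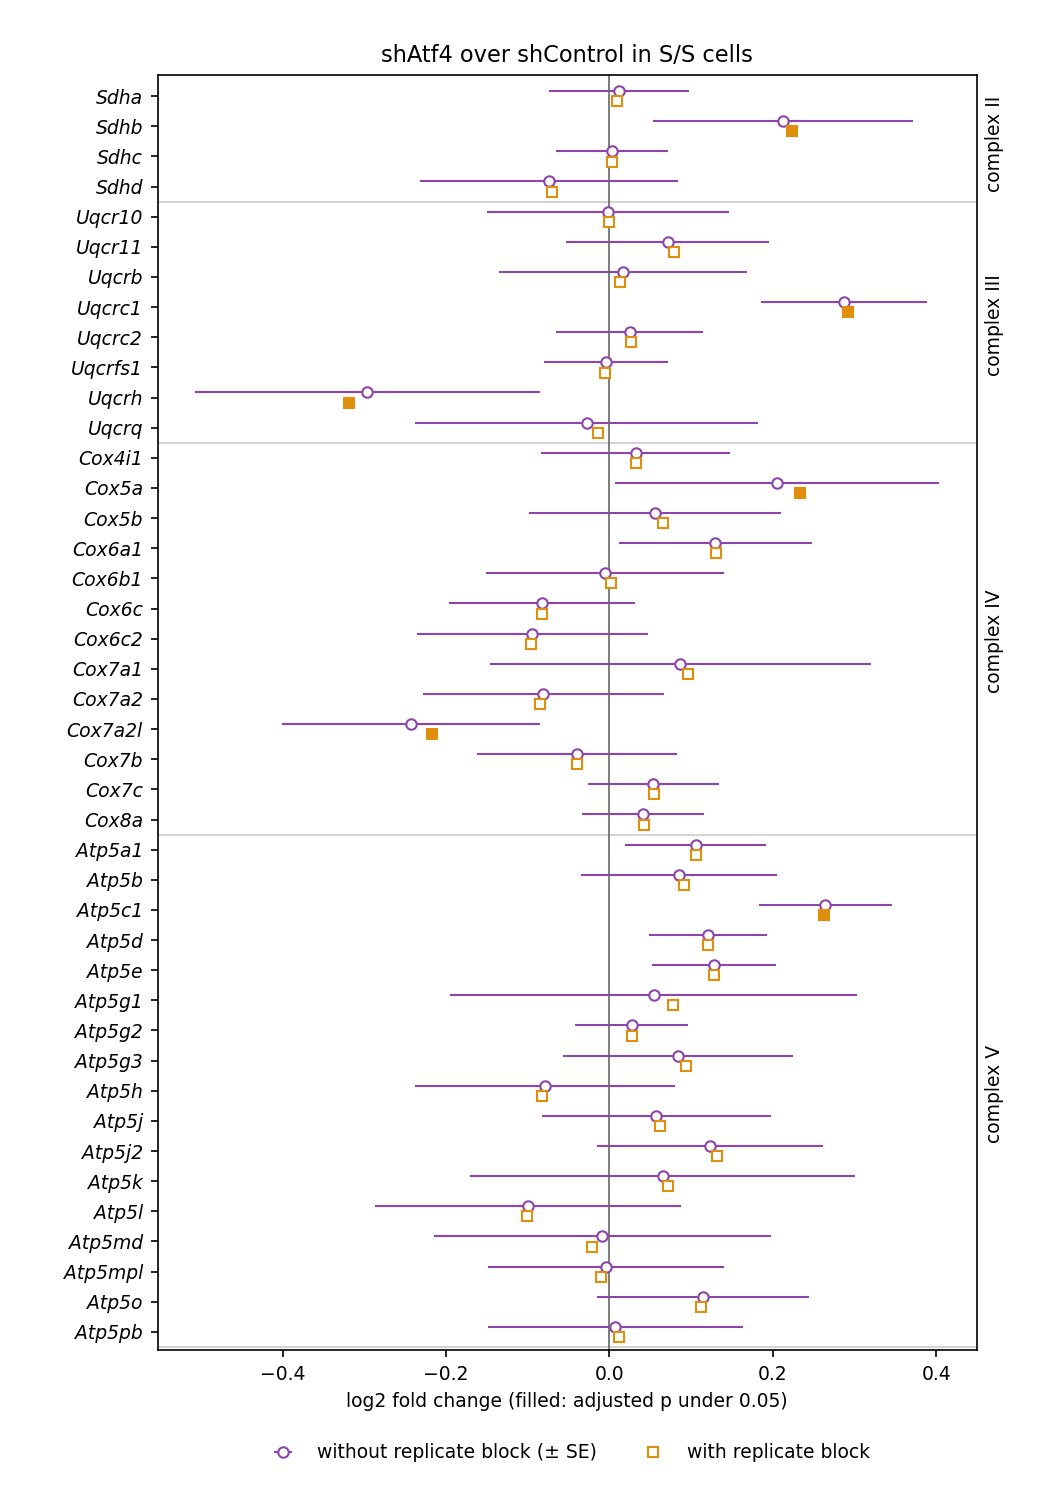
Log2 fold change of each of the 42 subunit genes after shAtf4 in S/S cells (horizontal axis), without a replicate block (purple circles, ± SE) and with it (orange squares). Filled symbols have an adjusted p under 0.05, and the only filled ones are 6 with the block.

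Other genes of oxidative phosphorylation were read from fixed lists. Of the nuclear complex I subunits, 32 of 37 rose and 0 fell after siChchd10 in A/A cells (median 0.29), against 26.5% and 27.2% of all genes. In S/S cells 1 rose and 2 fell (median -0.05), against 15.0% and 13.0%. The difference was called higher for 32 and lower for 0, against 16.7% and 18.9%. Between genotypes 6 were higher and 21 lower in A/A with siControl, against 35.6% and 34.7% of all genes, and 17 higher and 3 lower with siChchd10, against 34.7% and 35.8%. After shAtf4, 1 of 38 rose and 0 fell without the block, against 0.15% and 0.388% of all genes, and 2 rose and 0 fell with it, against 20.2% called. Assembly factors, which build the complexes without staying in them, rose after siChchd10 in A/A cells for 4 of 4 in complex II, 3 of 6 in complex III, 12 of 23 in complex IV and 3 of 5 in complex V. Together 22 of 38 rose and 1 fell, against 26.5% and 27.2% of all genes. The only one to fall was Ttc19, which clears fragments of the Rieske protein, with 20.5, 18.1, 18.0 and 21.4 CPM in A/A siChchd10, against 29.1, 29.7, 27.8 and 32.6 CPM in A/A siControl (-0.61, SE 0.0821, adjusted p = 2.17e-06). Sdhaf4, a chaperone of SDHA, had 15.5, 17.1, 15.8 and 16.4 CPM in A/A siChchd10, against 12.0, 10.8, 11.3 and 10.3 CPM in A/A siControl and rose by 0.54 (SE 0.064, adjusted p = 3.99e-08). Every treated library was higher. Among complex IV factors, Cox16 rose by 0.58 and Cox19, a carrier of copper, by 0.54 (adjusted p = 2.97e-07 and 2.45e-08).

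After siChchd10 in S/S cells 4 of the 38 assembly factors were called higher and 5 lower, against 15.0% and 13.0% of all genes, so their share was near that of all genes. The calls were 0 higher and 2 lower of 6 for complex III, 4 and 2 of 23 for complex IV, 0 and 1 of 5 for complex V and 0 and 0 of 4 for complex II. After shAtf4 0 of the assembly factors were called without the block, against 0.538% of all genes. With it 0 rose and 0 fell for complex II, 0 rose and 0 fell for complex III, 3 rose and 1 fell for complex IV and 0 rose and 0 fell for complex V, against 20.2% of all genes called. Cytochrome c (Cycs) rose by 0.21 after siChchd10 in A/A cells (adjusted p = 0.00912), and Cyc1, the cytochrome c1 of complex III, did not pass (0.08, adjusted p = 0.133). Cyc1 was lower in A/A than in S/S cells with siControl, by 0.45 (SE 0.0472, adjusted p = 1.77e-09). Among regulators of nuclear respiratory genes, 2 of 10 rose and 3 fell after siChchd10 in A/A cells, shares near the 26.5% and 27.2% of all genes. Tfam, which packages mitochondrial DNA, had 64.9, 66.8, 64.0 and 66.4 CPM in A/A siChchd10, against 59.1, 56.7, 56.5 and 55.1 CPM in A/A siControl and rose by 0.20 (SE 0.0412, adjusted p = 0.000127). The coactivator gene Ppargc1b rose by 1.17 (adjusted p = 0.00203) at levels of 0.501 CPM in A/A siChchd10 and 0.223 CPM in A/A siControl. Sp1 fell by 0.28, Pprc1 by 0.18 and Yy1 by 0.09. The call of Yy1 ended without any of 7 of the 8 libraries, all but A/A siControl replicate 1 (highest adjusted p = 0.16). Neither Nrf1 (0.02, adjusted p = 0.697) nor Gabpa (-0.06, adjusted p = 0.245) passed. With siControl 2 of the 10 were higher in A/A than in S/S cells and 8 lower, against 35.6% and 34.7% of all genes.

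Mitochondrial DNA encodes the partners of these subunits. Of 6 listed mRNAs, 0 rose and 1 fell after siChchd10 in A/A cells, against 26.5% and 27.2% of all genes. COX1, the catalytic subunit of complex IV, had 7318, 7542, 6371 and 5954 CPM in A/A siChchd10, against 7198, 6622, 7202 and 7407 CPM in A/A siControl (-0.06, SE 0.0591, adjusted p = 0.372), and the groups overlapped. CYTB, the cytochrome b of complex III, had 4277, 4261, 3214 and 3403 CPM in A/A siChchd10, against 3324, 2951, 3458 and 3587 CPM in A/A siControl (0.19, SE 0.0862, adjusted p = 0.0779). In S/S cells it rose by 0.32 (SE 0.0863, adjusted p = 0.0082), with 3287, 3669.6, 3613 and 3123 CPM in S/S siChchd10, against 2733, 2827, 2831 and 2547 CPM in S/S siControl. ATP6 fell by 0.30 in A/A cells (adjusted p = 0.0336), with overlap, and lost the call without A/A siControl replicate 1 or 3 or A/A siChchd10 replicate 1, 2 or 3 (highest adjusted p = 0.298). COX2, COX3, ATP6 and ATP8 had group means of 0.387 to 11.3 CPM over the 6 groups, far below the COX1 and CYTB values above. Whether such low values measure these mRNAs was not tested. The fall of ATP6 and the count over 6 mRNAs therefore cannot stand for the expression of mitochondrial DNA. How reads with copies of mitochondrial sequence in the nuclear genome were counted is not given in the sources used here.

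Counting limits bear on some members. In the GENCODE M21 transcripts, 10 of the 42 members had a transcript of another gene that matched over at least 50% of its length at 95% identity or more, and for 9 of them at least 1 copy was a pseudogene. Atp5l had 9 such copies, Uqcrb and Atp5h 3 each and Atp5g2 2, and Cox6c2 matched Cox6c at 97.0%. Exons of 13 members overlap another gene, 12 of them on the opposite strand. The assignment of shared reads is not given in the sources used here. The values of these members are uncertain.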

How the data were processed

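The 24 libraries were RNA-seq of cultured mouse cells, from Trizol extracts and a stranded total RNA kit sequenced on an Illumina instrument, per the labels' protocols. The deposited tables hold raw counts per gene symbol, 1 table for the 8 shRNA libraries and 1 for the 16 siRNA libraries. The submitters' processing notes name mm10 and DESeq2 1.24.0. The aligner, counter, annotation and strand setting were not given in the sources used here. CPM was computed here from the deposited counts, as counts over the library total scaled by the TMM factor of the fit, times 1000000. The level of 1 CPM in the rule for members and the limit of 0.213 CPM for Nkx2-1 used plain library totals.

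Each table was fitted separately with edgeR 4.0.16 in R 4.3.3 (filterByExpr, TMM scaling, robust quasi-likelihood test), and p-values were adjusted by Benjamini-Hochberg over all genes tested, with calls at an adjusted p under 0.05. The 16 siRNA libraries shared 1 fit. The fit was tested on simulated data. Library totals, given in the report, set the counting precision. The labels do not say that libraries came from separate cultures, so p-values measure only the spread between these samples, which may be technical. In the shRNA table same-numbered libraries deviated together (r = 0.45, 0.40, 0.24 and 0.79). Libraries of unlike number among replicates 1 to 3 also did (r = 0.12 to 0.31). S/S shAtf4 replicate 3 was nearer to S/S shControl replicate 2 (r = 0.28) than to its replicate 3. By these values only replicate 4 is clearly paired, and the labels give no pairing, so the block by number is an alternative.

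The members and lists were chosen with earlier results of these data known. Members named with values were, per comparison and complex, those with the largest called changes in each direction, or the smallest p where none was called, plus paralogs of subunits. Near copies were sought with BLAST 2.17.0+ in GENCODE M21 transcripts. Alternatives were other scaling and filters, DESeq2 1.42.0, the replicate block, fits of the compared libraries alone, and each library left out. A leukocyte marker of the list is not reported here.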

Additional observations from a re-analysis of the deposited data

Results flagged for a closer look

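In 11 of the 210 sets of 4 libraries examined, 1 library lay far from the others of its group, where chance gives about 10.5. In the shRNA table these were replicate 4 of S/S shAtf4 for Cox4i1 (244 CPM) and Atp5pb (343 CPM), replicate 3 of S/S shAtf4 for Cox8a (137 CPM), and replicate 4 of S/S shControl for Atp5g1 (60.6 CPM), Atp5h (95.4 CPM) and Atp5pb (355 CPM). In the siRNA table they were replicate 1 of A/A siChchd10 for Cox6a1 (158 CPM), replicate 1 of A/A siControl for Cox5b (65.9 CPM), replicate 3 of A/A siControl for Atp5a1 (1062 CPM), replicate 4 of S/S siChchd10 for Cox6a1 (137 CPM) and replicate 4 of S/S siControl for Atp5g2 (101 CPM).

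The siChchd10 effect differed between A/A and S/S cells by the test of the difference itself (A/A minus S/S, log2 scale) for 15 of the named members. Sdhb, Sdha, Uqcrq, Uqcr11, Cox5b, Cox4i1, Atp5l and Atp5j2 were named for their large called differences, so their passing was fixed by the choice. The paralogs Atp5g2 and Cox7a1 did not pass. Of all 42 members 38 were called higher and 0 lower, against 16.7% and 18.9% of all genes. The difference was 0.46 for Sdhb and 0.33 for Sdha in complex II, and 0.42 for Uqcrq and 0.33 for Uqcr11 in complex III. In complex IV it was 0.35 for Cox5b, 0.34 for Cox4i1, 0.34 for Cox7a2, 0.27 for Cox8a, 0.24 for Cox6b1, 0.20 for Cox7a2l and 0.19 for Cox6a1. In complex V it was 0.42 for Atp5l, 0.39 for Atp5j2, 0.31 for Atp5g1 and 0.22 for Atp5g3. Each value was positive in the fit of all 16 siRNA libraries.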

How the results depend on the processing

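Without a replicate block 0 members were called after shAtf4 in S/S cells. With the replicate block 6 were called, and without replicate 4 of both groups 4. Leaving out each library gave 0 to 0 calls there. Over all genes the same comparison called 79, against 2969 with the block, 462 with DESeq2 and 1726 without replicate 4 of both groups, so the count depends on these libraries. After siChchd10 in S/S cells 4 members were called, against 7 with library totals alone, 8 with no filter beyond 1 count, and 2 to 10 with each library left out. The ranges with each library left out were 29 to 38 for siChchd10 in A/A cells, 31 to 39 for the difference of the effects, 26 to 32 for the genotypes with siControl and 27 to 31 with siChchd10. The causes of these changes were not tested.

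In the siRNA table same-numbered libraries had correlations from -0.09 to 0.16, so the numbers do not pair them. With the number as a block 3 members were called for siChchd10 in S/S, 32 in A/A, 38 for the difference, 29 for the genotypes with siControl and 30 with siChchd10. Among the named members the block left Atp5b after siChchd10 in S/S cells at adjusted p = 0.0526 and Uqcrb between the genotypes with siControl at adjusted p = 0.0547. Of 70 named results with 1155 values under alternatives, 1096 kept direction and side of the threshold, 52 lost the threshold, 7 passed it and 0 reversed. The shRNA libraries were fewer and less alike, and changes of the size seen in A/A cells may not have been detectable there without the block.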
